A study of Mus musculus with 3 samples.

Results

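The Ikaros family and the Runx/CBFβ transcription factors were followed as 9 genes, Ikzf1 to Ikzf5, Runx1 to Runx3 and Cbfb, chosen by symbol. All 9 were found, each with 1 locus, among the 24437 genes of 3 RNA sequencing tables. The libraries came from thymic leukaemias of diseased Mb1-CreDPB mice of strain C57BL/6 and formed 1 group, in which thymus Thy_853 is leukaemia 1, Thy_854 is leukaemia 2 and Thy_857 is leukaemia 3. In this model Cre recombinase, driven from the mb-1 (Cd79a) locus and therefore active in B lineage cells, deletes Spi1, which encodes the ETS factor PU.1, in animals that have no Spi-B, a related factor. The series gives this 1 genotype name for all 3 thymuses, the sources used here give no ages, and no control samples were analysed. Thymuses were homogenized, red cells were lysed and the pelleted cells were not sorted by any step the labels name, so other cells of the organ could also contribute transcripts. In such bulk samples, fewer cells of a type and less RNA per cell cannot be told apart. The labels give each thymus its own number and do not state whether these were different animals, so that an SD with n = 3 measures only how the libraries differ.

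Ikaros proteins are zinc finger factors of lymphocytes. Their N-terminal fingers bind DNA, their C-terminal fingers join family members to each other, and they recruit chromatin complexes, above all NuRD. In developing B cells Ikaros (Ikzf1) and Aiolos (Ikzf3) silence the surrogate light chain genes and Myc as pre-B cells stop dividing, and IKZF1 is often deleted in human B cell leukaemia. Runx proteins bind DNA through their runt domain and do so well only when paired with CBFβ, which does not bind DNA itself. Runx1 acts with Ebf1 at early B lineage genes, Runx3 in cytotoxic T cells and natural killer (NK) cells, and Runx2 in bone formation.

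Values given 3 at a time run from leukaemia 1 to leukaemia 3. Levels are in FPKM, which divides a gene's fragments by its transcript length and by library size, so levels of different genes can be set side by side. Every ± is an SD over the 3 leukaemias. Whole-series features were similar, with 9992, 9797 and 9706 genes at FPKM of at least 1, here called expressed. B lineage markers dominated. Of 12 such genes 10 were expressed in all 3 leukaemias, with summed levels of 4465, 3455 and 3042 FPKM, and Fcer2a, a marker of mature B cells, was listed at 0 in leukaemia 2. Of 15 T lineage markers 10 were expressed in all 3, with sums of 348, 163 and 115 FPKM, of which the adaptor gene Lat alone made up 169, 113 and 67.8 FPKM. Transcripts of both lineages were thus present, with those of the B lineage far more abundant.

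Cbfb and 2 of the Ikaros genes, Ikzf1 and Ikzf3, were the most abundant members, and Ikzf2, Ikzf4 and Runx2 were close to undetected. Cbfb, the shared partner of all Runx proteins, stood at 79.3, 80.8 and 86.9 FPKM, a mean of 82.3 ± 4.07. Ikzf1, which encodes Ikaros, stood at 68.7, 79.9 and 62.6 FPKM, a mean of 70.4 ± 8.77. These 2 genes had overlapping ranges, although Cbfb was the higher in each leukaemia.

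Ikzf3, which encodes Aiolos, a partner of Ikaros that appears as B cell precursors mature, stood at 55.7, 51.5 and 45.4 FPKM, a mean of 50.9 ± 5.16. Its FPKM lay above the upper end of its own deposited 95% interval in each leukaemia, at 54.8, 50.6 and 44.8 FPKM. This was so for 27.1%, 28.1% and 28.4% of expressed genes, and none of the other members was among them. The range of Ikzf3 did not overlap that of Ikzf1, the higher gene in each leukaemia.

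Runx1, the Runx gene of blood stem cells and early B cells, followed at 16.001, 16.8 and 15.3 FPKM, with a mean of 16.04 ± 0.785. Ikzf5, which encodes the divergent family member Pegasus, stood at 8.66, 8.58 and 9.54 FPKM, a mean of 8.93 ± 0.532. Both lay in a narrow band, and their ranges did not overlap each other or those of their neighbours in the order. By mean level Cbfb lay at percentile 90.8 of the 10412 genes expressed in any leukaemia, Ikzf1 at percentile 89.2, Ikzf3 at 85.1, Runx1 at 57.9 and Ikzf5 at 41.3.

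The remaining members were low. Runx3, the Runx gene of CD8 T cells and NK cells, stood at 3.28, 1.28 and 2.57 FPKM (mean 2.37 ± 1.01), at percentile 14.3. Runx2, the bone factor, was listed at 0.650, 0.187 and 0.232 FPKM (0.356 ± 0.255). Ikzf2, which encodes Helios, a factor of regulatory T cells and blood progenitors, was listed at 0.344, 0.0957 and 0.108 FPKM (0.183 ± 0.140).

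Ikzf4, which encodes Eos, a partner of Foxp3 in regulatory T cells, was the lowest at 0.133, 0.0591 and 0.00903 FPKM (0.0671 ± 0.0625), and its deposited interval in leukaemia 3 ran down to 0. No member was listed at 0 in any leukaemia. Runx3, Runx2, Ikzf2 and Ikzf4 were each highest in leukaemia 1. Without leukaemia 1 the mean was 0.102 FPKM for Ikzf2, 0.209 for Runx2 and 0.0341 for Ikzf4, so that library carried much of these means. Of the 8 pairs of neighbours in the order of mean level, 5 had ranges that did not overlap. The exceptions were Cbfb with Ikzf1, Runx2 with Ikzf2 and Ikzf2 with Ikzf4. In all 8 the gene of higher mean was higher in 3 of 3 leukaemias (exact two-sided sign-flip permutation test on log2(FPKM + 1), p = 0.25 for each and 0.25 after Benjamini-Hochberg adjustment over the 8), and 0.25 is the smallest p that 3 libraries allow. Without leukaemia 1, all 8 pairs had ranges apart. Since the order held in each leukaemia, leaving out a library could only keep or raise this count.

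**Figure D1:**
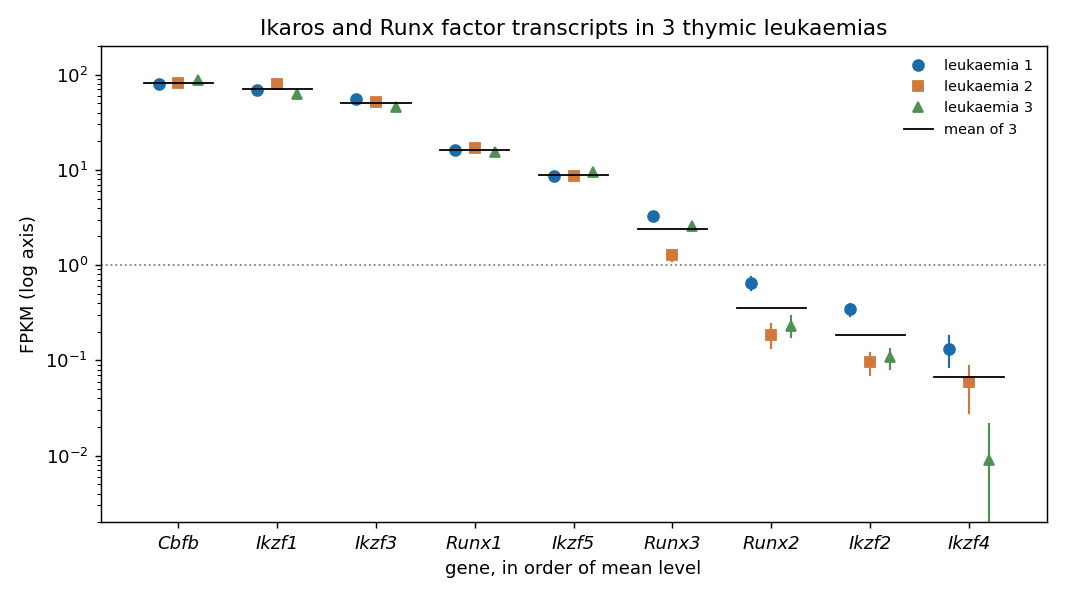
FPKM of the 9 genes (log axis) in the 3 leukaemias, with the mean as a black line and the deposited 95% intervals as vertical lines; the dotted line marks FPKM of 1. Cbfb, Ikzf1 and Ikzf3 lie between 45.4 and 86.9 FPKM, and Runx2, Ikzf2 and Ikzf4 lie below 1 in each leukaemia.

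Within the Ikaros family, transcript abundance was shared mainly by Ikzf1 and Ikzf3. The summed level of the 5 genes was 134, 140.1 and 118 FPKM. Ikzf1 made up 51.5%, 57.04% and 53.2% of it, Ikzf3 41.7%, 36.7% and 38.6%, and Ikzf5 6.49%, 6.12% and 8.101%. Ikzf2 and Ikzf4 together gave 0.357%, 0.111% and 0.0992%. The ratio of Ikzf1 to Ikzf3 was 1.23, 1.55 and 1.38, a mean of 1.39 ± 0.160, so Ikzf1 was ahead in each leukaemia and furthest ahead in leukaemia 2.

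Among the Runx genes, Runx1 gave 80.3%, 92.0001% and 84.5% of the summed 19.9, 18.3 and 18.1 FPKM. Runx3 gave 16.4%, 6.98% and 14.2%, and Runx2 3.26%, 1.02% and 1.28%. The summed level hardly varied (18.8 ± 1.01 FPKM), while the ratio of Runx1 to Runx3 was 4.88, 13.2 and 5.95. Cbfb transcripts outnumbered those of all Runx genes per unit length, at 3.98, 4.41 and 4.81 times their sum (4.401 ± 0.418).

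**Figure D2:**
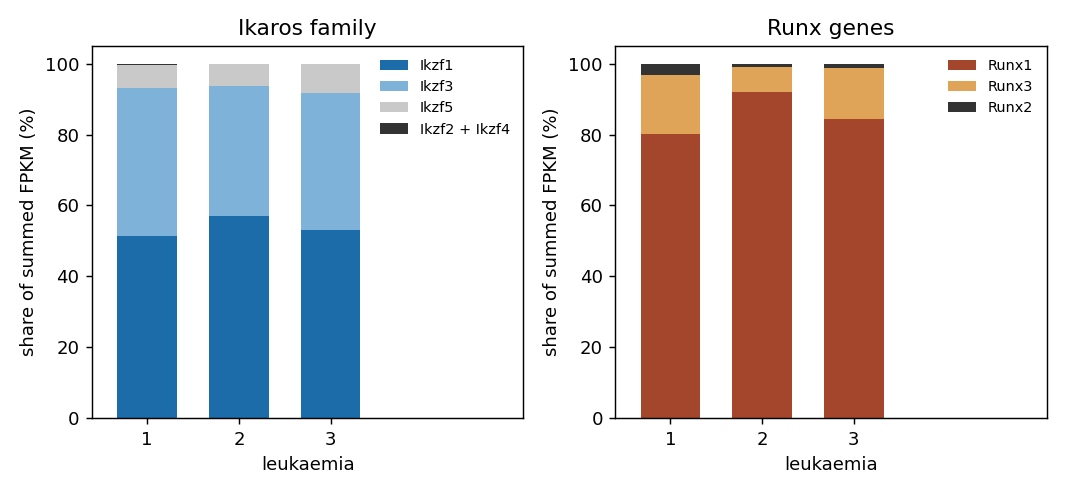
Share of the summed FPKM (%) given by each gene within the Ikaros family (left) and among the Runx genes (right), by leukaemia. Ikzf1 holds 51.5% to 57.04% of the Ikaros family and Runx1 80.3% to 92.0001% of the Runx sum.

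The members were then compared between leukaemias. With 1 library per leukaemia there is no replicate check and no p-value. Calling a gene different took 3 things: a difference of 1 or more in log2(FPKM + 1), which makes differences of low genes look smaller than they are, expression in either leukaemia, and deposited intervals without overlap. Of the 9 members 6 were expressed in either leukaemia of each pair, and Ikzf2, Ikzf4 and Runx2 were not, so they could not be called. For leukaemia 1 minus 2, 0 of 6 members were called, where 8.16% of 10295 genes were. For leukaemia 1 minus 3 it was 0 of 6, where 9.98% of 10265 genes were, and for leukaemia 2 minus 3 it was 0 of 6, where 4.68% of 10047 genes were. With so few members, counts of 0 are near what these shares give.

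Size aside, intervals did not overlap for 3 of the 6 members for leukaemia 1 minus 2, where this held for 68.5% of genes. It held for 4 of 6 for leukaemia 1 minus 3, against 71.8% of genes, and for 6 of 6 for leukaemia 2 minus 3, against 56.3%. The median absolute difference of the 6 members was 0.09, 0.13 and 0.16 on the log2(FPKM + 1) scale for leukaemia 1 minus 2, 1 minus 3 and 2 minus 3. Over all tested genes it was 0.27, 0.31 and 0.18.

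Cbfb and Runx1 varied least, with SDs of 4.95% and 4.90% of their means, at percentiles 9.82 and 9.60 of the 9300 genes expressed in all 3 leukaemias, where the median gene had 15.2%. The SD was 5.96% of the mean for Ikzf5, 10.1% for Ikzf3 and 12.4% for Ikzf1. Runx3 varied most of the expressed members, with an SD of 42.7% of its mean at percentile 91.2. Ikzf1 was highest in leukaemia 2, where Runx3 was lowest, and the difference of Ikzf1 was -0.21 for leukaemia 1 minus 2, 0.13 for 1 minus 3 and 0.35 for 2 minus 3 (log2). All 3 leukaemias had separate intervals for Ikzf1. Ikzf3 differed by 0.11, 0.29 and 0.18 in the same pairs, also with separate intervals.

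**Figure D3:**
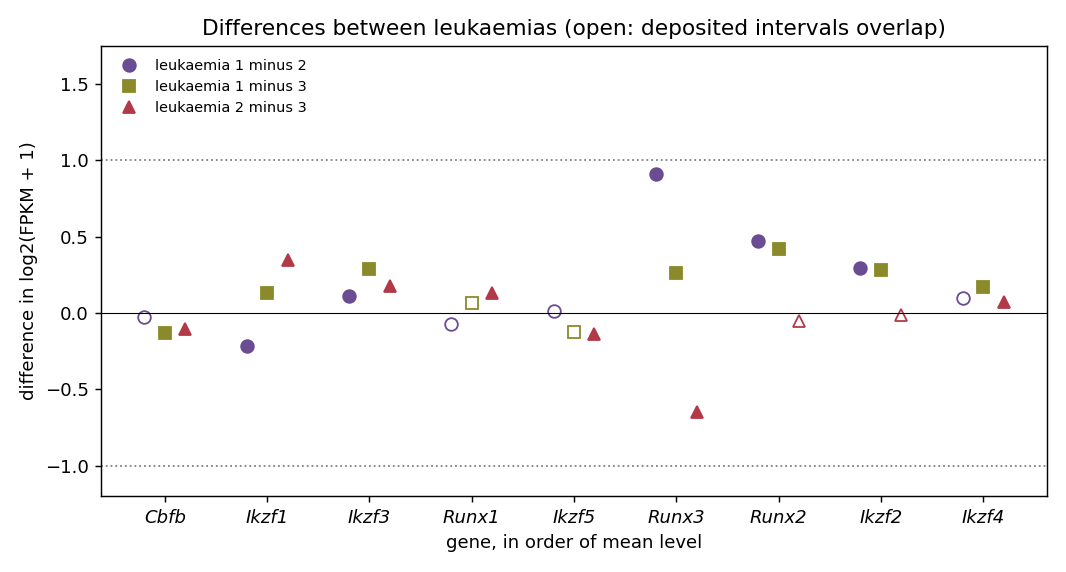
Difference in log2(FPKM + 1) of each gene for leukaemia 1 minus 2, 1 minus 3 and 2 minus 3; open symbols mark pairs whose deposited intervals overlap and dotted lines the size needed for a call. Runx3 comes nearest, at 0.91 for leukaemia 1 minus 2.

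Runx3 came closest to a call. The intervals were 2.93 to 3.56 FPKM in leukaemia 1, 1.10 to 1.45 in leukaemia 2 and 2.28 to 2.80 in leukaemia 3, so all 3 were separate. Its difference was 0.91 for leukaemia 1 minus 2, 0.26 for 1 minus 3 and -0.65 for 2 minus 3 on the log2(FPKM + 1) scale, and its FPKM was 2.56 times as high in leukaemia 1 as in leukaemia 2. With a pseudocount of 0.1 the difference for leukaemia 1 minus 2 was 1.29 and Runx3 was called there. Runx3 was thus highest in leukaemia 1, lower in leukaemia 3 and lowest in leukaemia 2.

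Markers of cells known to express Runx3 were read beside it, with the share of all genes called in the same direction. For leukaemia 1 minus 2, where 5.56% of all genes were called higher and 2.60% lower, 7 of the 8 tested NK and cytotoxic markers (10 listed) were called higher and 1, Gzma, lower. For leukaemia 1 minus 3, with 6.75% of all genes higher and 3.22% lower, 5 of 8 were higher and 1 lower, and Runx3 differed by 0.26. For leukaemia 2 minus 3, with 2.96% higher and 1.72% lower, 0 of 6 were called, and Runx3 differed by -0.65. The median difference of the 10 listed markers, tested or not, was 1.36, 1.07 and -0.16 in these pairs. Over all tested genes it was 0.02, -0.01 and -0.06. Prf1, the perforin gene, stood at 5.18, 0.926 and 1.504 FPKM. The summed level of the 10 markers was 141, 152 and 91.2 FPKM, of which Gzma, a granzyme gene, gave 17.1, 125 and 62.6. Ncr1, a defining NK receptor gene, was at 0.190, 0.132 and 0.0843 FPKM. Of the 15 T lineage markers 12 were called higher and 1 lower for leukaemia 1 minus 2, and 11 higher and 0 lower for leukaemia 1 minus 3. For leukaemia 2 minus 3, 1 of 12 tested was higher and 1 lower, so most calls of these markers were in pairs with leukaemia 1. Cd8a, a T cell gene that Runx3 is known to activate, stood at 13.8, 3.53 and 3.92 FPKM. The part of these cells in the level of Runx3 was not tested.

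The genes whose profile over the 3 leukaemias was nearest to that of Runx3 were Ffar1, Txndc5, Glo1, Zdhhc8 and Nab1. They were ranked by Euclidean distance between log2(FPKM + 1) profiles centred on their means, among 8119 genes that reached an FPKM of 5 in any leukaemia. Distances ran from 0.0226 for Ffar1, a fatty acid receptor gene at 6.81, 3.23 and 5.49 FPKM, to 0.0548 for Nab1, a corepressor gene at 6.81, 3.26 and 5.32 FPKM. Within a distance of 0.1 lay 15 genes. A profile over 3 libraries is a weak measure of likeness.

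Ikzf2, Ikzf4 and Runx2 shared a higher level in leukaemia 1 than in leukaemias 2 and 3. FPKM of Ikzf2 was 3.59 times as high in leukaemia 1 as in leukaemia 2 and 3.19 times as high as in leukaemia 3, with separate intervals. The interval of Ikzf2 was 0.294 to 0.394 FPKM in leukaemia 1, against 0.0707 to 0.120 in leukaemia 2. For leukaemia 2 minus 3 the intervals of Ikzf2 overlapped, so only leukaemia 1 stood out.

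Of 6 regulatory T cell markers 3 were expressed in all leukaemias, with summed levels of 18.6, 22.9 and 7.59 FPKM. Foxp3, which defines that cell type, was at 1.58, 0 and 0 FPKM, and Il2ra, an interleukin 2 receptor chain also found on other activated lymphocytes, at 3.55, 17.2 and 1.96. Foxp3 and Ikzf2 were thus both highest in leukaemia 1, and the part of regulatory T cells in Ikzf2 was not tested. Ikzf4 was 2.25 times as high in leukaemia 1 as in leukaemia 2 with overlapping intervals, and its interval in leukaemia 3 lay below both others.

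Runx2 was 3.48 times as high in leukaemia 1 as in leukaemia 2 and 2.80 times as high as in leukaemia 3, with separate intervals for both. Its interval was 0.553 to 0.746 FPKM in leukaemia 1, 0.133 to 0.242 in leukaemia 2 and 0.175 to 0.289 in leukaemia 3, the last pair overlapping. Sp7 and Ibsp, which mark bone-forming cells and act with or below Runx2 there, were listed at 0 in all leukaemias. Of the 8 stroma and bone markers 3 were expressed in all 3, with list sums of 131, 185 and 56.7 FPKM. Most of these sums came from Alpl, at 85.3, 135 and 32.3 FPKM, and Pecam1, at 41.9, 46.7 and 22.5 FPKM. Of the 5 plasmacytoid dendritic cell markers, of a type that also uses Runx2, 1 was expressed in all 3 (Bst2, an interferon-responsive gene). The sums were 262, 167 and 180 FPKM. Like Runx2, Bst2, Klk1 (0.668, 0.0698 and 0.380 FPKM) and Ccr9 (1.18, 0.0687 and 0.148) were highest in leukaemia 1. Ccr9 was called higher there than in leukaemia 2. Siglech, a defining receptor gene at 0.108, 0.00832 and 0.143 FPKM, was highest in leukaemia 3. So was Cox6a2, which was listed at 0 in leukaemia 1 and called lower there in both pairs. The median difference of the 5 was 0.64 for leukaemia 1 minus 2, 0.27 for 1 minus 3 and -0.18 for 2 minus 3. The part of these cells in the level of Runx2 was not tested. The Runx2 locus overlaps that of Supt3, a gene of transcription coactivator complexes at 9.98, 5.24 and 7.82 FPKM, and the sources used here do not say whether the counting used strand. Reads of these 2 genes may therefore not have been told apart.

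Markers of other cells that use Runx1 were also read. Of 12 myeloid markers 7 were expressed in all 3 leukaemias, with sums of 345, 287 and 85.3 FPKM, and Elane, a neutrophil granule gene, was listed at 0 in leukaemia 3. Of 8 erythroid and megakaryocyte markers 2 were, with sums of 99.6, 131 and 19.9 FPKM, and Hbb-bs, a globin gene, was listed at 0 in all 3. The sums were lowest in leukaemia 3 and were carried by a few genes, such as S100a8 and Hba-a2. The median marker stood at 4.53, 3.73 and 2.31 FPKM in the myeloid list and at 0.364, 0.966 and 0.326 FPKM in the erythroid and megakaryocyte list. Runx1 had 16.001, 16.8 and 15.3 FPKM in the same libraries.

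The gene starts of the Runx family carry a shared run of letters, shown here because it is common to all 3 Runx genes whatever their level. RefSeq promoter windows of build GRCm38.p6, each of 300 bases beginning 250 before a start, held entries for 6 of the 9 members in 9 windows, and Ikzf2, Ikzf3 and Ikzf4 had none. TGTGGT, the core letters that Runx proteins bind, was searched on both strands, so that a match on the other strand reads ACCACA. In Runx1 and Runx3 the window of the start furthest upstream, and in Runx2 the 1 window it had, held a pair of ACCACA matches whose first letters lie 8 bases apart. The stretches of 30 bases are given 5′ to 3′ on the strand of the gene, with the matches in capitals.
Runx1, chr16:92826025-92826054, minus strand: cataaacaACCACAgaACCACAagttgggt
Runx2, chr17:44814583-44814612, minus strand: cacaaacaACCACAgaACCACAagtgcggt
Runx3, chr4:135120503-135120532, plus strand: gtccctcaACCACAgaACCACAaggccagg
The first match began at base 29 after the start in Runx1, at base 24 after it in Runx2 and 134 bases before it (-134) in Runx3. Such a pair was present in 7 of 32851 windows (0.0213%), and the 3 Runx windows shown are among the 7. The pair and its spacing were picked after these windows were seen, so this share is a description and not a test. A gene can have several windows, and 1 match or more on either strand was present in 16.8% of all windows. These are matches of letters and not shown sites, and the tables give 1 value per gene, so which start was used in the leukaemias was not analysed here.

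Matches to ETS letters were read in the same windows, because the model removes ETS factors. GGAA, the ETS core, was present in 95.98% of windows on 1 strand or the other, and the longer AGGAAG, which contains it, in 35.4%. Ikzf1 had a pair of windows. The first, at the start of the deposited locus (chr11:11685675-11685974), held 0 matches to GGAA and 0 to AGGAAG. The second held 6 matches to GGAA (TTCC on the other strand), 3 of them within AGGAAG, where 84.6% of windows held 2 or more GGAA and 8.62% held 2 or more AGGAAG. The Cbfb window held 4 matches to GGAA, 2 of them before the start. Other members held GGAA as well, with 6 and 4 matches in the windows of Runx1, 5 in Runx2, 3 in Ikzf5 and 2 and 0 in those of Runx3. The 250 bases before the start are shown for these 2 abundant members with GGAA and TTCC in capitals.
Ikzf1, chr11:11689927-11690176, plus strand: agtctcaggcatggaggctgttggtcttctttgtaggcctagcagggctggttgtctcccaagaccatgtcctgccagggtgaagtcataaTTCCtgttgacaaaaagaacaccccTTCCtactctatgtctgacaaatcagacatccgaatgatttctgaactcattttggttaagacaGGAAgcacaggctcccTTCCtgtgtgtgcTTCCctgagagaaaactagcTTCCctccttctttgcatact
Cbfb, chr8:105170424-105170673, plus strand: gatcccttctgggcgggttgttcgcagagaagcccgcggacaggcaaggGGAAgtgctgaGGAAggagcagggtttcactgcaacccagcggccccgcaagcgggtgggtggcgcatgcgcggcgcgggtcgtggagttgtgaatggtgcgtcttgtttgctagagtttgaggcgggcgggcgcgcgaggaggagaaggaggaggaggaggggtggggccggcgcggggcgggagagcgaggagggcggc
Counted from the start, the 6 matches in Ikzf1 begin between -159 and -21, and both of those shown in Cbfb lie further away, at -201 and -190. A match to GAGGAAGT, a longer PU.1 type sequence, was present in 3.20% of windows and in the Cbfb window, where it began at base 3 after the start. Spi1 itself was still listed at 11.6, 6.70 and 7.13 FPKM and Spib at 11.8, 14.6 and 9.60 FPKM. These values do not check the deletion of Spi1 or the loss of Spib. A value per gene may count exons that remain, and unsorted cells outside the B lineage could contribute Spi1. Neither was tested.

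In the deposited mm10 coordinates, with 1 added to each start, Ikzf1 spans chr11:11685925-11772926, Ikzf3 chr11:98464693-98546031 and Ikzf5 chr7:131388649-131410478. Ikzf2 spans chr1:69531210-69685960 and Ikzf4 chr10:128632415-128645993. Runx1 spans chr16:92601466-92826074, Runx2 chr17:44495987-44814797, Runx3 chr4:135120645-135177990 and Cbfb chr8:105170674-105217988. Runx2 was the only member whose locus overlapped another listed gene.

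Genes of the proteins that work with Ikaros were mostly abundant, and the share of them called between leukaemias was read against that of all genes. All 13 genes of the NuRD complex, which removes histone acetyl groups and moves nucleosomes, were expressed in 1 or more leukaemias and 12 in all 3. Its most abundant members were Mbd2, a methyl-CpG binding protein gene, at 142 ± 12.1 FPKM, Mta2 at 122 ± 13.3 and Rbbp7 at 114 ± 27.1, and Chd4, the remodelling ATPase that binds Ikaros, stood at 102 ± 11.9. Of the 13, 1 was called higher for leukaemia 1 minus 2, where 5.56% of all genes were, and 0 lower, where 2.60% were. Mta3, a B cell member of the complex at 6.16, 1.17 and 0.980 FPKM, was that gene and was also the 1 called for leukaemia 1 minus 3, again higher, where 6.75% were higher and 3.22% lower. For leukaemia 2 minus 3, 0 of the 13 were called, against 2.96% higher and 1.72% lower among all genes. These counts are near the shares of all genes.

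All 5 other partners were expressed. Smarca4, the SWI/SNF ATPase gene, stood at 247, 190 and 145 FPKM (194 ± 50.8), the corepressor gene Ctbp1 at 138 ± 11.9 and Sin3b at 88.4 ± 2.74. Ctbp2, the paralog of Ctbp1, was called different in every pair, at 20.3, 1.17 and 7.90 FPKM. It was the 1 of the 5 called, where 8.16%, 9.98% and 4.68% of all genes were called for leukaemia 1 minus 2, 1 minus 3 and 2 minus 3. It was high in leukaemia 1 and low in leukaemia 2. The median difference of the NuRD list was -0.18, -0.23 and -0.03 for leukaemia 1 minus 2, 1 minus 3 and 2 minus 3. The median log2(FPKM + 1) level of the NuRD list was 5.75, 6.14 and 5.84 and that of the other partners 6.43, 6.51 and 6.50, where the median of all genes expressed in any leukaemia was 3.71, 3.68 and 3.71.

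Among 18 Runx cofactors 14 were expressed in all 3 leukaemias, with median levels of 3.54, 3.33 and 3.23 on the log2(FPKM + 1) scale. Myb, which acts with Runx factors at blood cell enhancers, was the highest at 200.1 ± 45.3 FPKM. Aes, a short Groucho family corepressor gene, had a mean of 83.7 ± 95.9 FPKM, with 194 FPKM in leukaemia 1 against 24.2 and 32.5 in leukaemias 2 and 3. Suv39h1, a histone methyltransferase gene, was next at 34.9 ± 7.51.

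Of the 5 Groucho family genes, Aes was called in both pairs with leukaemia 1, where it was higher. Tle1 was called in both pairs with leukaemia 2, where it was lower, at 4.94, 1.504 and 6.16 FPKM. Tle3, at 24.8, 27.9 and 29.1 FPKM, and Tle4, at 11.7, 9.52 and 10.4 FPKM, were called in no pair. Tle2 and 3 other genes of the list, Runx1t1, Gata1 and Tal1, were below FPKM of 1 in each leukaemia. Of the 14 tested cofactors 2 were called higher for leukaemia 1 minus 2, 1 higher for 1 minus 3 and 1 lower for 2 minus 3. In each pair 0 were called the other way. The shares of all genes in those directions were 5.56%, 6.75% and 1.72%, and with so few genes the counts are near them.

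Genes known to be regulated by Ikaros spanned a wide range of levels. The surrogate light chain genes Igll1 and Vpreb1, which Ikaros and Aiolos silence in maturing pre-B cells, were the most abundant at 3139, 2490.4 and 1955 FPKM and at 1853, 2025 and 1221 FPKM, and the FPKM of both lay above the upper end of their own intervals in 1 or more leukaemias. Myc stood at 35.8, 66.97 and 63.9 FPKM, lower in leukaemia 1 by 0.89 and 0.82 on the log2(FPKM + 1) scale against leukaemias 2 and 3 but not called. Of the 10 tested genes (12 listed), 5 were called higher and 0 lower for leukaemia 1 minus 2, where 5.56% of all genes were higher and 2.60% lower.

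Those 5 were the recombinase genes Rag1 (12.7, 0.511 and 1.70 FPKM) and Rag2 (3.15, 0.0678 and 0.105), Dntt, the terminal transferase gene (2.66, 0.187 and 0.310), Cd8a and the adaptor gene Blnk (53.9, 14.6 and 37.9). Rag1, Rag2, Dntt and Cd8a were also called for leukaemia 1 minus 3, which makes 4 of 10 tested higher and 0 lower, where 6.75% of all genes were higher and 3.22% lower. For leukaemia 2 minus 3 Blnk was the 1 of 8 tested called, and lower, where 1.72% of all genes were lower. Hes1, a Notch target, stood at 44.8, 32.6 and 44.3 FPKM, and Ptcra and Ptk2 were below FPKM of 1. The median difference of the 12 listed genes, tested or not, was 0.39, 0.55 and -0.06 for leukaemia 1 minus 2, 1 minus 3 and 2 minus 3. The median over all genes of the series took tested genes only and was 0.02, -0.01 and -0.06, so the 2 are not fully alike. Rag1, Rag2, Dntt and Cd8a are also used by developing T cells, and 12 and 11 of the 15 T lineage markers were called higher in leukaemia 1 against leukaemias 2 and 3. Among the markers called higher in both pairs was Themis, at 2.92, 0.634 and 0.691 FPKM. Some other genes of developing T cells did not share that pattern. Bcl11b, a T cell commitment factor, stood at 1.61, 12.7 and 0.378 FPKM and was called lower in leukaemia 1 than in leukaemia 2. Gata3 stood at 1.02, 0.227 and 2.75 FPKM, and Ptcra, the pre-T cell receptor gene, was below 0.1 FPKM in each leukaemia. The part of T lineage cells in these values was not tested.

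Of 13 genes regulated by Runx factors, Cd79a at 623 ± 121 FPKM and Ebf1 at 96.8 ± 13.9, both B lineage genes, were the most abundant and were called in no pair. Blk, a B cell kinase gene, was next in mean level at 18.97 ± 16.8 FPKM and split the leukaemias, with 0.727 FPKM in leukaemia 1 against 33.9 and 22.3 in leukaemias 2 and 3. It was the 1 gene called lower in leukaemia 1 than in each of the others. Called in both pairs with leukaemia 1, and higher there, were Cd4 (7.79, 1.72 and 1.54 FPKM), Cd8a, Prf1 and the granzyme gene Gzmb (42.7, 7.41 and 5.11).

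The cytokine gene Ifng was called in both pairs with leukaemia 3, where it was lower, at 3.32, 3.44 and 0.902 FPKM, and Mpo, a neutrophil enzyme gene, was called for leukaemia 2 minus 3, higher in leukaemia 2, at 0.466, 1.499 and 0.0195. Of 12 tested genes, 4 were called higher and 1 lower for leukaemia 1 minus 2, where 5.56% of all genes were higher and 2.60% lower. For leukaemia 1 minus 3 it was 5 of 11 higher and 1 lower, against 6.75% and 3.22%, and for leukaemia 2 minus 3 it was 2 of 12 higher and 0 lower, against 2.96% and 1.72%. The median difference of the 13 listed genes, tested or not, was 0.17, 0.63 and 0.41 in these pairs. Over all tested genes it was 0.02, -0.01 and -0.06. The list includes Spi1, the gene the model deletes, and the median of 0.63 for leukaemia 1 minus 3 is the difference of Spi1 itself. Cd8a stands in both lists of regulated genes, and Cd4, Cd8a, Prf1 and Gzmb are also markers of T, NK or cytotoxic cells, whose part was not tested.

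**Figure D4:**
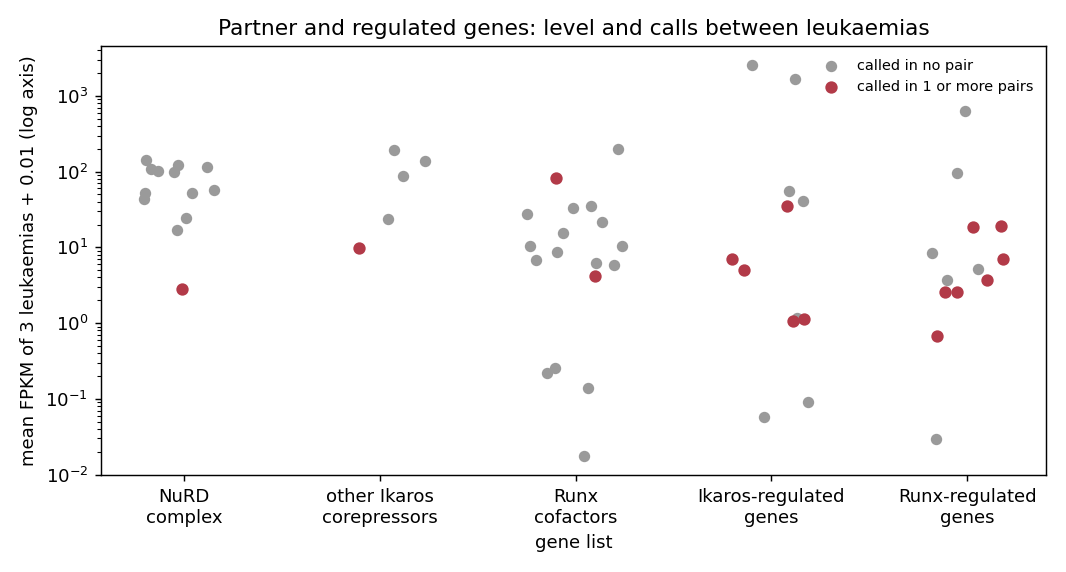
Mean FPKM over the 3 leukaemias plus 0.01 (log axis) of the genes of 5 lists, with genes called different in 1 or more pairs of leukaemias in red. In the NuRD list 1 of 13 genes is red, and in the list of Runx-regulated genes Cd79a and Ebf1, the 2 highest, are grey.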

How the data were processed

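RNA from 3 thymic leukaemias went into Illumina libraries, per the labels' protocols. The tools named in the submitters' processing notes are Cufflinks, Cuffdiff 2.1.1, TopHat2 2.0.9 and Trim Galore 0.2.8.1, with build mm10, and the sources used here give neither their order nor their settings. The authors deposited FPKM per gene with lower and upper 95% bounds, per the file headers, in 1 table per library. Fragment numbers are not given, so the depth is unknown, and an interval within 1 library holds no spread between animals.

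Each table held 25020 rows. Rows whose symbol had become a date (26) were left out, and FPKM was summed over loci of 1 symbol, which left 24437 genes. All rows were kept whatever their status, and the 9 members had status OK. Differences used log2(FPKM + 1). The order of levels was tested with an exact sign-flip permutation test, and pairs of leukaemias were compared by size and intervals, with no test. The code that makes the calls was tested on simulated data with counting error only. That was not a check of the calls in these libraries. The text names all members and, of each list of partner or regulated genes, the 3 of highest mean and those called in any pair. Some others (Chd4, Tle3, Tle4, Myc, Hes1, Bcl11b and Spi1 among them) were named after their values were seen, as were single markers and the RUNX pair, its spacing and the other motifs. Members and lists were chosen with earlier results of these data known. Python 3.11.15, numpy 2.4.6, pandas 2.3.3, scipy 1.17.1 and matplotlib 3.10.9 were used.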

Additional observations from a re-analysis of the deposited data

How the results depend on the processing

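Interval midpoints in place of FPKM shifted the mean levels of the 9 members by -3.87% to 1.48%, and median-ratio rescaling by -0.300% to 0.539%. Taking the highest locus or rows of status OK could not change them, since each member has 1 locus of that status. Leaving out leukaemia 1 moved the mean by over 1.5 times for Ikzf2 (0.102 against 0.183 FPKM), Runx2 (0.209 against 0.356) and Ikzf4 (0.0341 against 0.0671). The count of members called was 0 in each pair except with a pseudocount of 0.1, which called 1 (Runx3) for leukaemias 1 and 2, and with a difference of at least 0.5, which called 1 (Runx3) for leukaemias 1 and 2 and 1 (Runx3) for leukaemias 2 and 3. Over all genes, 840, 1024 and 470 were called for leukaemias 1 and 2, 1 and 3, and 2 and 3. A difference of at least 0.5 gave 2725, 3313 and 1423. A pseudocount of 0.1 gave 1291 for leukaemias 1 and 2, and a minimum FPKM of 5 gave 287 for leukaemias 2 and 3. The lists of partner and regulated genes held 13, 5, 18, 12 and 13 genes, with Cd8a in both of the last. Of these genes 12 were called for leukaemias 1 and 3 and 5 for leukaemias 2 and 3. A difference of at least 0.5 called 22 and 11 in these pairs, where it called 3313 of 10265 and 1423 of 10047 genes. A minimum FPKM of 5 called 3 of them for leukaemias 2 and 3, where it called 287 of all genes. Pairs of neighbouring members with ranges apart numbered 5 to 8 when 1 library was left out, with 8 without leukaemia 1. This count could not fall below 5, because the order held in each leukaemia and fewer libraries only narrow the ranges. Alternatives for neighbours and for partner and regulated genes were chosen after seeing the data. Of 81 recomputed differences of members, 13 moved by more than the combined half-width of the 2 intervals and 0 of those with separate intervals changed sign, and pseudocounts below 1 widen the differences of Ikzf2, Ikzf4, Runx2 and Runx3 by construction. No paired analysis was possible because the leukaemias form 1 group.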
